A study of Rattus norvegicus with 4 samples.

Results

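The mRNAs described here encode the proteins with which astrocytes take up glutamate and GABA and turn glutamate into other metabolites. They are the glutamate carriers Slc1a2, Slc1a3 and Slc1a1, the enzymes Glul and Glud1, the glutamine carriers Slc38a3 and Slc38a1 and the GABA carrier Slc6a11. Probes of these genes were chosen by gene name or RefSeq transcript, without use of any measured value, which gave 13 of the 41012 non-control probes of the array for 8 genes. The genes themselves were chosen with earlier results of these data known. In co-culture after removal of the neurons, compared with astrocytes grown alone, Slc1a2 mRNA was 1.49-fold as high and 2 of 3 probes of Glud1 were 1.34-fold and 1.29-fold as high, although both Glud1 values turned when arrays were only centred on their median. The largest difference went the other way, with 1 of 2 probes of Glul at 0.55-fold, while the other probe did not move with it. None of the 11 probes that could be tested passed an adjusted p of 0.05 in any comparison of the main fit, with 2 arrays per comparison. When arrays were only centred on their median, 9 passed against astrocytes alone and 10 against whole co-culture.

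Astrocytes were primary cells of Wistar rat cortex, taken at postnatal day 1, and were joined in co-culture by neurons of mouse hippocampus at embryonic day 18. Whole co-culture (CC), co-culture from which neurons had been washed off by cold jet, a stream of ice-cold buffer (CC-CJ), and astrocytes kept alone and treated with the same stream (AA-CJ) were compared on 4 rat arrays with 2 colours. Cy3 marked CC-CJ throughout, against Cy5-labelled AA-CJ on 2 arrays and Cy5-labelled CC on the other two, and dyes were not swapped. Mouse mRNA was therefore read by probes made for rat, and within an array dye and condition cannot be told apart. CC and AA-CJ carried the same dye, so that a constant dye effect cancels between them. The labels number 2 replicates per comparison, and the paper states that array replicates came from different pools of animals. The labels do not say whether the CC-CJ RNA of the AA-CJ arrays is that of the CC arrays. All 3 comparisons lean on the CC-CJ channel.

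Glutamate released at synapses is cleared largely by astrocytes, through the sodium-driven carriers GLT-1 (Slc1a2) and GLAST (Slc1a3). Inside the astrocyte, glutamine synthetase (Glul) joins ammonia to glutamate, and glutamate dehydrogenase (Glud1) feeds glutamate into the citric acid cycle. Glutamine leaves through carriers such as SNAT3 (Slc38a3) and is taken up by neurons, where it is made into glutamate again and, in inhibitory neurons, into GABA. GABA is cleared in part by the astrocyte carrier GAT-3 (Slc6a11).

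On these arrays 50.1% to 55.7% of probes in the CC-CJ channel and 56.3% to 62.6% in the Cy5 channel were well above background. The ratio M is log2 of CC-CJ over the Cy5 group of the same array, after background correction and removal of the trend with intensity, and levels are log2 values of 1 channel that can be compared within a probe only. The 95% intervals and p-values come from limma, and adjusted p-values are Benjamini-Hochberg over all 24864 probes tested. Each of the 9 astrocyte markers looked up, among them Gfap, Aldh1l1, S100b and Sox9, had a probe that was tested, and summed astrocyte marker levels on the linear scale were 29796 and 30853 in AA-CJ, 30213 to 33624 in CC-CJ and 30228 and 29875 in CC. Of 12 tested astrocyte marker probes, 1 passed against AA-CJ, a probe of the water channel Aqp4. Neuronal markers summed to 9208 and 9708 in AA-CJ, 8757 to 9213 in CC-CJ and 21236 and 22572 in CC. Of their 13 tested probes, 4 passed as higher in CC-CJ against AA-CJ and 0 as lower, and 8 passed as lower against CC. Syp was not well above background in any channel. The 4 include Gap43 (M 2.03, limma adjusted p = 0.000268) and Mapt A_44_P309013 (M 0.73, limma adjusted p = 0.0174), whose rise against AA-CJ the sums do not show. Snap25, among the 8, entered the test through CC alone, the group in which it is high, so its place in the count is no support. Among the 4, Dcx and Elavl4 A_42_P792864 were well above background on no AA-CJ array. They entered through the co-culture groups, in which they are high, so their place is no support either. Microglial markers summed to 1286 and 1412 in AA-CJ, 1764 to 2193 in CC-CJ and 3595 and 3492 in CC, with 5 of 9 tested probes passing as higher in CC-CJ against AA-CJ, 7 as lower against CC, and Itgam and Cx3cr1 not well above background in any channel. Aif1 and Csf1r A_44_P226109, among the 7, likewise entered through CC alone. Among the 5, both C1qa probes and Trem2 were well above background on no AA-CJ array. These entered through the co-culture groups, in which they are high, so their place in that count is no support. The part of these other cells in the values below was not tested, and in RNA of a mixed culture fewer cells of a type cannot be told apart from less RNA per cell.

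Slc1a2 was read by a pair of probes that differed in signal. The probe for transcript NM_017215 (A_44_P545654, rn4 chromosome 3, 87988361 to 87988420) was well above background in every channel. Its log2 level was 7.09 and 7.55 in AA-CJ, 7.92 and 7.88 in CC-CJ on the same arrays, 8.12 and 7.85 in CC-CJ on the CC arrays, with 8.06 and 8.21 in CC. Every co-culture value, with or without neurons, was thus above both values of astrocytes alone, while CC-CJ and CC overlapped. Both CC levels lay above both AA-CJ levels in 25.2% of all tested probes. The share for CC-CJ levels, which are in the other dye than AA-CJ, was not computed, here or for the probes below. M was 0.83 and 0.33 against AA-CJ, with a mean of 0.58 (SE 0.15, 95% interval 0.23 to 0.93, n = 2 arrays), an unadjusted p of 0.00567 and a limma adjusted p of 0.0799. Against CC, M was 0.05 and -0.36, with a mean of -0.16 (SE 0.15, interval -0.50 to 0.19, limma adjusted p = 0.636). CC exceeded AA-CJ by 0.74 (SE 0.21, interval 0.24 to 1.23, limma adjusted p = 0.141), which is 1.66-fold. This was 0.49 without AA-CJ replicate 1, 0.98 without AA-CJ replicate 2 (limma adjusted p = 0.0419) and 0.53 without CC replicate 2.

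The direction of Slc1a2 against AA-CJ was the same in each of the 16 alternatives, from 0.33 to 0.95, and the call was not. It passed when arrays were only centred on their median (0.52, limma adjusted p = 0.0191). It also passed when only the arrays of the comparison were fitted (0.58, limma adjusted p = 0.0395), which leaves the mean as it is and changes the pooled spread. The mean was 0.83 without the replicate 2 array of AA-CJ and 0.33 without that of replicate 1, in which AA-CJ was lower. The gap in M between these arrays exceeded that of 94.1% of tested probes.

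The other Slc1a2 probe (A_44_P226231, 87993033 to 87993092) was designed on the mRNA of the splice form GLT1a (AY069978) and is printed at 10 spots on each array. None of these spots was well above background in any channel. Its mean signal was 1.1 to 1.29 times the local background, and its log2 levels ran from 6.01 to 6.12 over all channels. This probe set only an upper bound on its target and was not tested, so it gives no separate value for that splice form.

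Slc1a3, the other main astrocyte carrier, had bright probes that are both designed on NM_019225 and lie close together on rn4 chromosome 2. At A_42_P533183 (58270419 to 58270478) the log2 level was 13.96 and 14.62 in AA-CJ, 14.61 and 14.48 in CC-CJ on these arrays, 14.48 and 14.55 in CC-CJ on the CC arrays, with 14.48 and 14.53 in CC. AA-CJ replicate 1 was the low sample, and all other values lay within 0.14 of each other. At A_44_P167719 (58270881 to 58270940) the levels were 10.97 and 11.43 in AA-CJ, 11.62, 11.54, 11.67 and 11.55 in CC-CJ, with 11.49 and 11.54 in CC. Here too AA-CJ replicate 1 was lowest, with both AA-CJ values under every value of co-culture.

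M of Slc1a3 against AA-CJ was 0.65 and -0.14 at A_42_P533183, a gap between arrays that exceeded that of 99.0% of tested probes. Its mean of 0.25 (interval -0.15 to 0.66, limma adjusted p = 0.43) did not differ from 0, was -0.14 without AA-CJ replicate 1 and 0.65 without AA-CJ replicate 2 (limma adjusted p = 0.0381), and turned to -0.89 when arrays were centred on their median and the intensity trend was left in. The neighbouring probe gave 0.66 and 0.10, with a mean of 0.38 (SE 0.14, interval 0.06 to 0.70, limma adjusted p = 0.162), 0.10 without AA-CJ replicate 1, 0.66 without AA-CJ replicate 2 (limma adjusted p = 0.0437) and -0.39 under that centring. Removal of neurons left this mRNA close to its level in CC, with means of 0.01 (interval -0.39 to 0.41) and 0.09 (interval -0.23 to 0.41), which median centring turned to -0.79 and -0.50. CC exceeded AA-CJ by 0.24 (interval -0.33 to 0.81, limma adjusted p = 0.652) and 0.29 (interval -0.17 to 0.75, limma adjusted p = 0.491), and these were -0.11 and 0.11 under that centring, -0.15 and 0.013 without AA-CJ replicate 1, and 0.64 and 0.56 without AA-CJ replicate 2.

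Slc1a1, the glutamate carrier of neurons, was read by A_44_P251706 (NM_013032, rn4 chromosome 1, 232551013 to 232551072), also printed at 10 spots. In Cy3, which held CC-CJ, no spot was well above background, and in Cy5 between 1 and 3 of 10 spots were, on each array. The log2 levels were 6.27 and 6.24 in AA-CJ, 6.22 to 6.29 in CC-CJ, with 6.23 and 6.15 in CC. Even the whole co-culture, with its neurons, was not well above background at this probe, and no ratio is given.

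**Figure D1:**
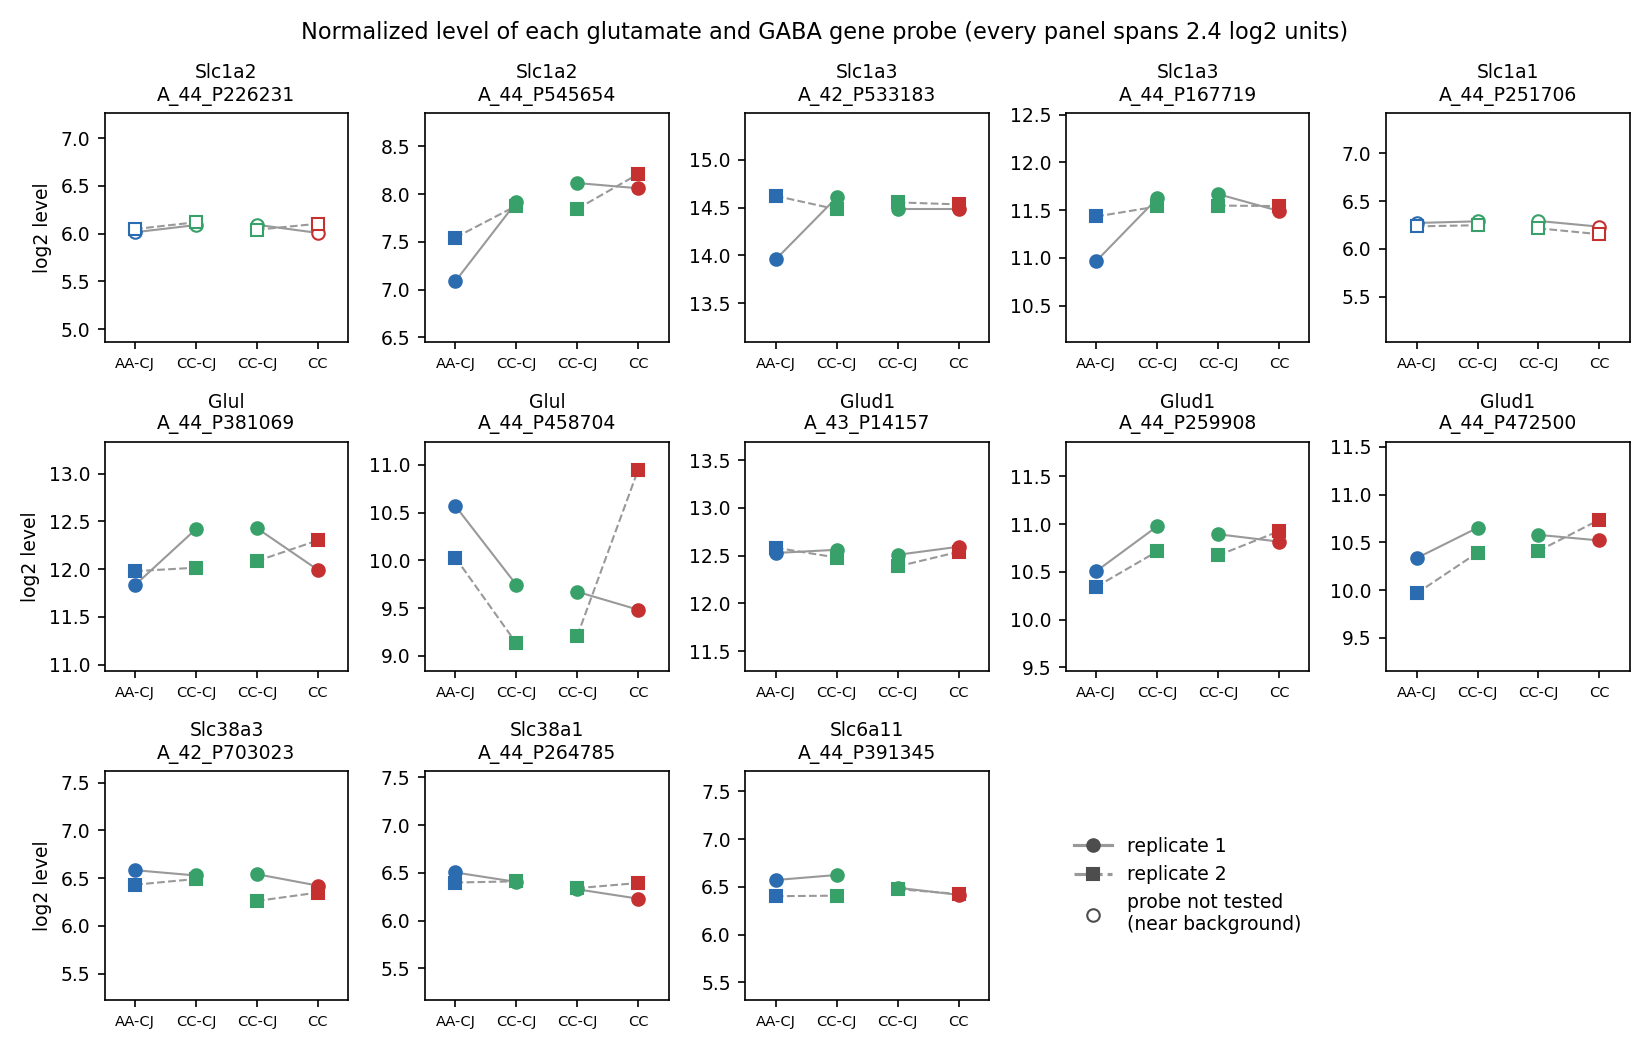
Normalized log2 level (vertical axis) of each of the 13 probes in AA-CJ, CC-CJ on the AA-CJ arrays, CC-CJ on the CC arrays and CC. Lines join the channels of an array, circles and squares are replicates 1 and 2, and open symbols are probes that were not tested. Slc1a2 A_44_P545654 lies at 7.09 and 7.55 in AA-CJ and at 7.85 or above in all co-culture channels, while Glul A_44_P458704 ranges from 9.48 to 10.95 between the replicates of CC.

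Glul was read by a pair of probes for NM_017073, without given positions, and they went in opposite directions against AA-CJ. Against CC their signs were the same on each array, positive on replicate 1 and negative on replicate 2. A_44_P381069 had log2 levels of 11.83 and 11.98 in AA-CJ, 12.42, 12.01, 12.43 and 12.08 in CC-CJ, with 11.99 and 12.30 in CC. CC-CJ lay above both AA-CJ values on each array. M against AA-CJ was 0.59 and 0.04, with a mean of 0.31 (SE 0.18, interval -0.12 to 0.74, limma adjusted p = 0.36), and it was -0.54 under median centring. Against CC it was 0.44 and -0.22, with a mean of 0.11 (interval -0.32 to 0.54, limma adjusted p = 0.802), and -0.52 under that centring.

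The dimmer Glul probe, A_44_P458704, had log2 levels of 10.57 and 10.03 in AA-CJ, 9.74 and 9.13 in CC-CJ on these arrays, 9.67 and 9.21 in CC-CJ on the CC arrays, with 9.48 and 10.95 in CC. CC-CJ was the low group against AA-CJ on both arrays, and the replicates of CC lay on either side of AA-CJ. M against AA-CJ was -0.82 and -0.90, with a mean of -0.86 (SE 0.37, interval -1.74 to 0.02, limma adjusted p = 0.233), and -1.44 under median centring (limma adjusted p = 0.00848). The width of this interval comes from the CC arrays, where M was 0.19 and -1.74, and that gap of 1.93 was larger than for 99.992% of tested probes. Without either CC array the difference from AA-CJ had a limma adjusted p of 0.0034. The comparison with CC (mean -0.78, interval -1.66 to 0.11, limma adjusted p = 0.35) rested on CC replicate 2. It was 0.19 without that replicate and -1.74 without CC replicate 1 (limma adjusted p = 0.000346). Likewise CC minus AA-CJ was -0.08 with both arrays, 0.88 without CC replicate 1 (limma adjusted p = 0.038) and -1.05 without CC replicate 2 (limma adjusted p = 0.02).

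On each of the 4 arrays M was higher at A_44_P381069 than at A_44_P458704, by 1.41, 0.93, 0.25 and 1.52. A direction for Glul mRNA as a whole can therefore not be given.

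Glud1 was read by 3 probes for NM_012570 along rn4 chromosome 16. At A_44_P259908 (9998014 to 9998073) log2 levels were 10.51 and 10.34 in AA-CJ, 10.98, 10.71, 10.89 and 10.67 in CC-CJ, with 10.82 and 10.92 in CC. All co-culture values were above both values of astrocytes alone. M against AA-CJ was 0.47 and 0.37, with a mean of 0.42 (SE 0.11, interval 0.17 to 0.67) and a limma adjusted p of 0.0769, the lowest of all member probes. It passed with a local regression on intensity and array location (0.46, limma adjusted p = 0.0413) and without either CC array (limma adjusted p = 0.0492), and was -0.26 under median centring. CC exceeded AA-CJ by 0.51 (SE 0.15, interval 0.16 to 0.86, limma adjusted p = 0.152), between 0.34 and 0.67 over the alternatives.

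A_44_P472500 (9994290 to 9995260, the probe nearest the start of this stretch) gave a like pattern. Its log2 levels were 10.33 and 9.96 in AA-CJ, 10.65, 10.39, 10.58 and 10.41 in CC-CJ, with 10.52 and 10.74 in CC, without overlap between AA-CJ and either co-culture group. The mean M against AA-CJ was 0.37 (SE 0.11, interval 0.11 to 0.64, limma adjusted p = 0.113), and -0.27 under median centring. CC exceeded AA-CJ by 0.51 (interval 0.13 to 0.88, limma adjusted p = 0.173), 0.31 without CC replicate 2 and 0.70 without CC replicate 1.

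The brightest Glud1 probe, A_43_P14157 (9999144 to 9999203), differed from both. Its log2 levels were 12.53 and 12.58 in AA-CJ, 12.56, 12.48, 12.51 and 12.39 in CC-CJ, with 12.59 and 12.54 in CC, so that all 3 groups overlapped. Its mean M against AA-CJ was -0.03 (SE 0.09, interval -0.24 to 0.17, limma adjusted p = 0.859), and -0.94 under median centring (limma adjusted p = 0.000297). M was lower than at A_44_P259908 by 0.44 and 0.47 on the AA-CJ arrays. Against CC the means of the 3 probes were -0.12, -0.09 and -0.13, with intervals from -0.40 to 0.16 and no limma adjusted p under 0.534. Under median centring they were -0.77, -0.64 and -0.66, and all 3 passed (limma adjusted p = 0.000744, 0.00202 and 0.00252).

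The carriers of glutamine and astrocyte GABA were close to background. Slc38a3, through which astrocytes release glutamine, was read by A_42_P703023 (NM_145776, rn4 chromosome 8, 112899099 to 112899158), well above background on 3 of 4 arrays in CC-CJ and on every array in AA-CJ and CC. Its log2 levels were 6.58 and 6.43 in AA-CJ, 6.53, 6.49, 6.54 and 6.26 in CC-CJ, with 6.42 and 6.35 in CC. CC-CJ overlapped both other groups while CC lay below AA-CJ, and the mean difference of CC-CJ was 0.0021 from AA-CJ (interval -0.22 to 0.22) and 0.02 from CC (interval -0.21 to 0.24). Slc6a11 was read by A_44_P391345 (NM_024372, rn4 chromosome 4, 150195271 to 150196078), also well above background on 3 of 4 arrays in CC-CJ. Its levels were 6.57 and 6.40 in AA-CJ, 6.63, 6.41, 6.49 and 6.48 in CC-CJ, with 6.42 and 6.43 in CC, with a mean M of 0.03 against AA-CJ (interval -0.17 to 0.23) and 0.06 against CC (interval -0.13 to 0.26). These signs turned under some alternatives, and under median centring both probes passed, with M of 0.54 and 0.57 against AA-CJ and 0.83 and 0.81 against CC.

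Slc38a1, a glutamine carrier found mainly in neurons, was read by A_44_P264785 (NM_138832, rn4 chromosome 7, 135254473 to 135254532). It was well above background on 0 of 4 arrays in CC-CJ, on 1 of 2 in AA-CJ and on both in CC. Its log2 levels were 6.51 and 6.40 in AA-CJ, 6.33 to 6.41 in CC-CJ, with 6.23 and 6.39 in CC. Both CC levels were below both AA-CJ levels. CC-CJ has only a bound at this probe. No fold is therefore read for this probe in any comparison, since each is fitted through CC-CJ. Signals of 1.24 to 1.69 times local background at these 3 carriers limit how large a change their probes could show.

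Over the 11 tested probes, 0 were called in CC-CJ versus AA-CJ by limma, where 3.3% of all tested probes were (2.12% higher and 1.17% lower), and 4 had an unadjusted p under 0.05, against 22.45% of all. This count was 9 under median centring and 3 when only the arrays of the comparison were fitted. The 2 SD criteria of the methods of the study called 0. Glul A_44_P458704, at -0.82 and -0.90, did lie beyond the lower limits of -0.48 and -0.44 of the 2 arrays. Those methods also ask that probes of 1 mRNA give comparable results, and the other Glul probe was at 0.59 and 0.04. M was above 0 on both arrays for 6 member probes, against 29.8% of all tested probes, and below 0 on both for 1, against 35.8%. The median M of the members was 0.25, beside -0.01 over all tested probes. The 6 are the tested Slc1a2 probe, A_44_P167719 of Slc1a3, A_44_P381069 of Glul, both dimmer Glud1 probes and the Slc6a11 probe. Under median centring the means of A_44_P167719, A_44_P381069, A_44_P259908 and A_44_P472500 were -0.39, -0.54, -0.26 and -0.27, while Slc1a2 and Slc6a11 were at 0.52 and 0.57. The direction of the members as a set thus depends on the normalization. For CC-CJ versus CC, 0 member probes were called, against 2.38% of all (0.0845% higher and 2.3% lower), and 0 had an unadjusted p under 0.05, against 16.8% of all. Median centring called 10 of the 11 here. M was above 0 on both CC arrays for 2 member probes, against 26.7% of all, and below 0 on both for 1, against 38.4%. The median M of the members was 0.01, beside -0.03 over all tested probes. For CC versus AA-CJ, 0 were called, against 2.66% of all (2.6% higher and 0.0644% lower), and 3 had an unadjusted p under 0.05, against 17.41% of all. In 5 member probes both CC levels were above both AA-CJ levels, against 25.2% of all, and in 2 they were below, against 30.9%. No fitted difference of a member between CC and AA-CJ reached 2-fold, although Slc1a2 did with the signals processed by Feature Extraction (1.06 on the log2 scale, limma adjusted p = 0.324) and Glul A_44_P458704 did, in the other direction, without CC replicate 2 (-1.05, limma adjusted p = 0.02).

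**Figure D2:**
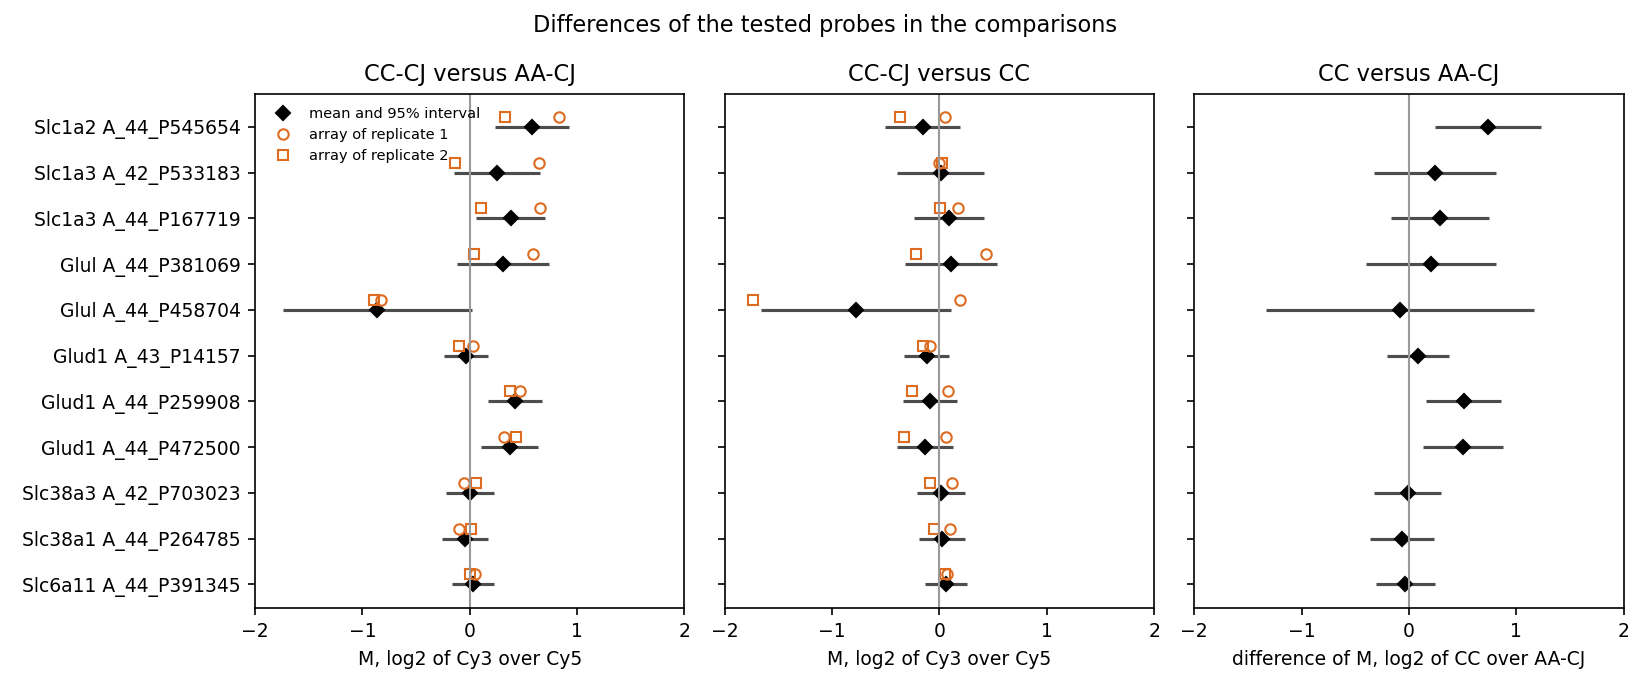
Log2 differences (horizontal axis) of the 11 tested probes in CC-CJ versus AA-CJ, CC-CJ versus CC and CC versus AA-CJ. Diamonds and bars are limma means with 95% intervals, and open symbols in the first and middle panels are the single arrays. The Slc1a2 mean is 0.58 against AA-CJ and its direction was the same in all alternatives, whereas the Slc1a3 means, the mean of Glul A_44_P381069 and the Glud1 means of 0.42 and 0.37 turned negative when arrays were only median-centred. Glul A_44_P458704 has the widest intervals, with single CC arrays at 0.19 and -1.74, and Slc38a1 is fitted through a CC-CJ channel near background.

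**Figure D3:**
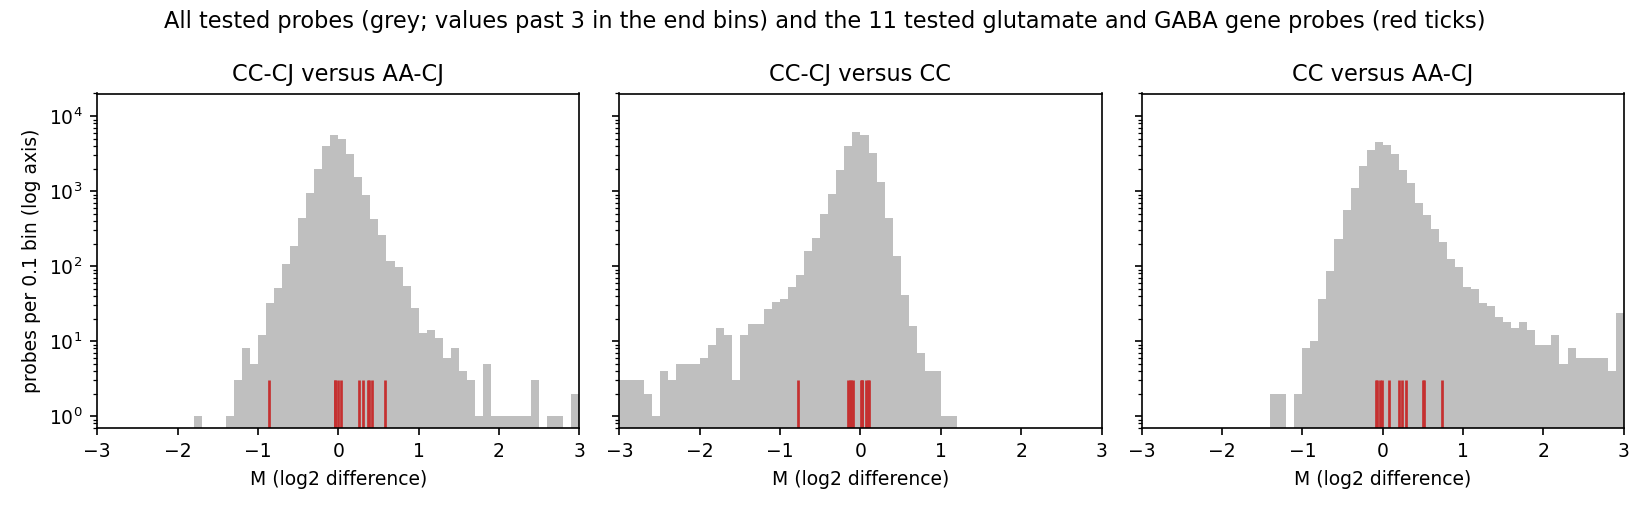
Number of tested probes (vertical log axis) by log2 difference (horizontal axis, bins of 0.1) in each comparison, with red ticks at the 11 member probes. The members lie between -0.86 and 0.58 in CC-CJ versus AA-CJ, between -0.78 and 0.11 in CC-CJ versus CC, and between -0.08 and 0.74 in CC versus AA-CJ, inside the range of the other probes.

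The rest of the glutamate, glutamine and GABA pathway was followed through 35 further genes, of which 3 had no probe. Their 41 probes included 27 that were tested, for 23 genes. In CC-CJ versus AA-CJ, limma called 0 of these 27 probes, where 3.3% of all tested probes were called, 5 had an unadjusted p under 0.05, against 22.45% of all, and the 2 SD criteria called 0. Median centring called 17 of the 27. The value with the lowest adjusted p, singled out after its values were seen, was at A_44_P104652 of the glutamine carrier Slc38a2. Its M against AA-CJ was 0.59 and 0.35, with a mean of 0.47 (SE 0.10, limma adjusted p = 0.0596), and the other Slc38a2 probe, A_44_P463878, had a mean of 0.14 (SE 0.09, limma adjusted p = 0.413).

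In CC-CJ versus CC, 4 of the 27 pathway probes were lower and 0 were higher, where 2.3% of all tested probes were lower. They belong to the vesicular GABA carrier Slc32a1, the GABA-making enzyme Gad2, the aspartate aminotransferase Got1 and the mitochondrial glutamate carrier Slc25a22. Gad2 was well above background on both CC arrays and on no array in CC-CJ or AA-CJ, so it entered the test through the group in which it is high, and its place in the count is no support. Its levels were 7.48 and 7.45 in CC, 6.47 and 6.45 in CC-CJ on the same arrays, 6.18 and 6.19 in CC-CJ on the AA-CJ arrays, with 6.10 and 6.21 in AA-CJ. No fold is read for it, since the lower groups have only a bound. The count was 2 without CC replicate 2, where Got1 (limma adjusted p = 0.27) and Slc25a22 (limma adjusted p = 0.0717) no longer passed. The same pair was lost with the scanner software's own processed signals (limma adjusted p = 0.23 and 0.114). With signal required in every channel Gad2 was not tested and Got1 was lost (limma adjusted p = 0.0539), which also left 2. Got1 no longer passed without background subtraction or with a normexp offset of 16 either (limma adjusted p = 0.0507 and 0.0555). Under median centring, in contrast, 18 of the 27 pathway probes were called.

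Slc32a1 stood at 8.38 and 8.98 in CC and between 6.76 and 7.28 in all other channels, with a mean M of -1.47 against CC (SE 0.13, limma adjusted p = 0.00146) and a difference of 1.71 between CC and AA-CJ (SE 0.18, limma adjusted p = 0.00377). Slc25a22 fell by 0.78 from CC to CC-CJ (SE 0.09, limma adjusted p = 0.00644) and was 0.75 higher in CC than in AA-CJ (SE 0.13, limma adjusted p = 0.0338). Got1 had levels of 8.18 and 8.26 in CC with 7.66 and 7.08 in CC-CJ on the same arrays, and 7.76 and 7.24 in AA-CJ. Its M against CC was -0.51 and -1.18, a fall of unequal size, with a mean of -0.85 (SE 0.15, limma adjusted p = 0.0384). Its difference between CC and AA-CJ was 0.75 (SE 0.21, limma adjusted p = 0.141), with 0.41 without CC replicate 2 and 1.09 without CC replicate 1 (limma adjusted p = 0.014). In CC versus AA-CJ, 3 of the 27 probes were higher and 0 lower, where 2.6% of all tested probes were higher, and they were those of Slc32a1, Gad2 and Slc25a22. Of these, Gad2 again entered through CC alone. Slc25a22 no longer passed with the replicate block, a normexp offset of 16, signals processed by Feature Extraction or the deposited processed values (limma adjusted p = 0.0853, 0.0742, 0.218 and 0.0514). Nor did it pass without AA-CJ replicate 2 or either CC array, where its difference was 0.65, 0.80 and 0.70. Neuronal marker levels summed to 21236 and 22572 in CC and at most 9708 in any other channel, while 7 of 9 microglial, 2 of 11 oligodendrocyte lineage and 2 of 7 fibroblast marker probes also passed as lower in CC-CJ against CC. Among these, the microglial Aif1 and Csf1r A_44_P226109 and the oligodendrocyte lineage Mag entered the test through CC alone. Like that of Gad2, their place in the counts is no support. The part of RNA of these cells in the values of the 4 genes was not tested.

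**Figure D4:**
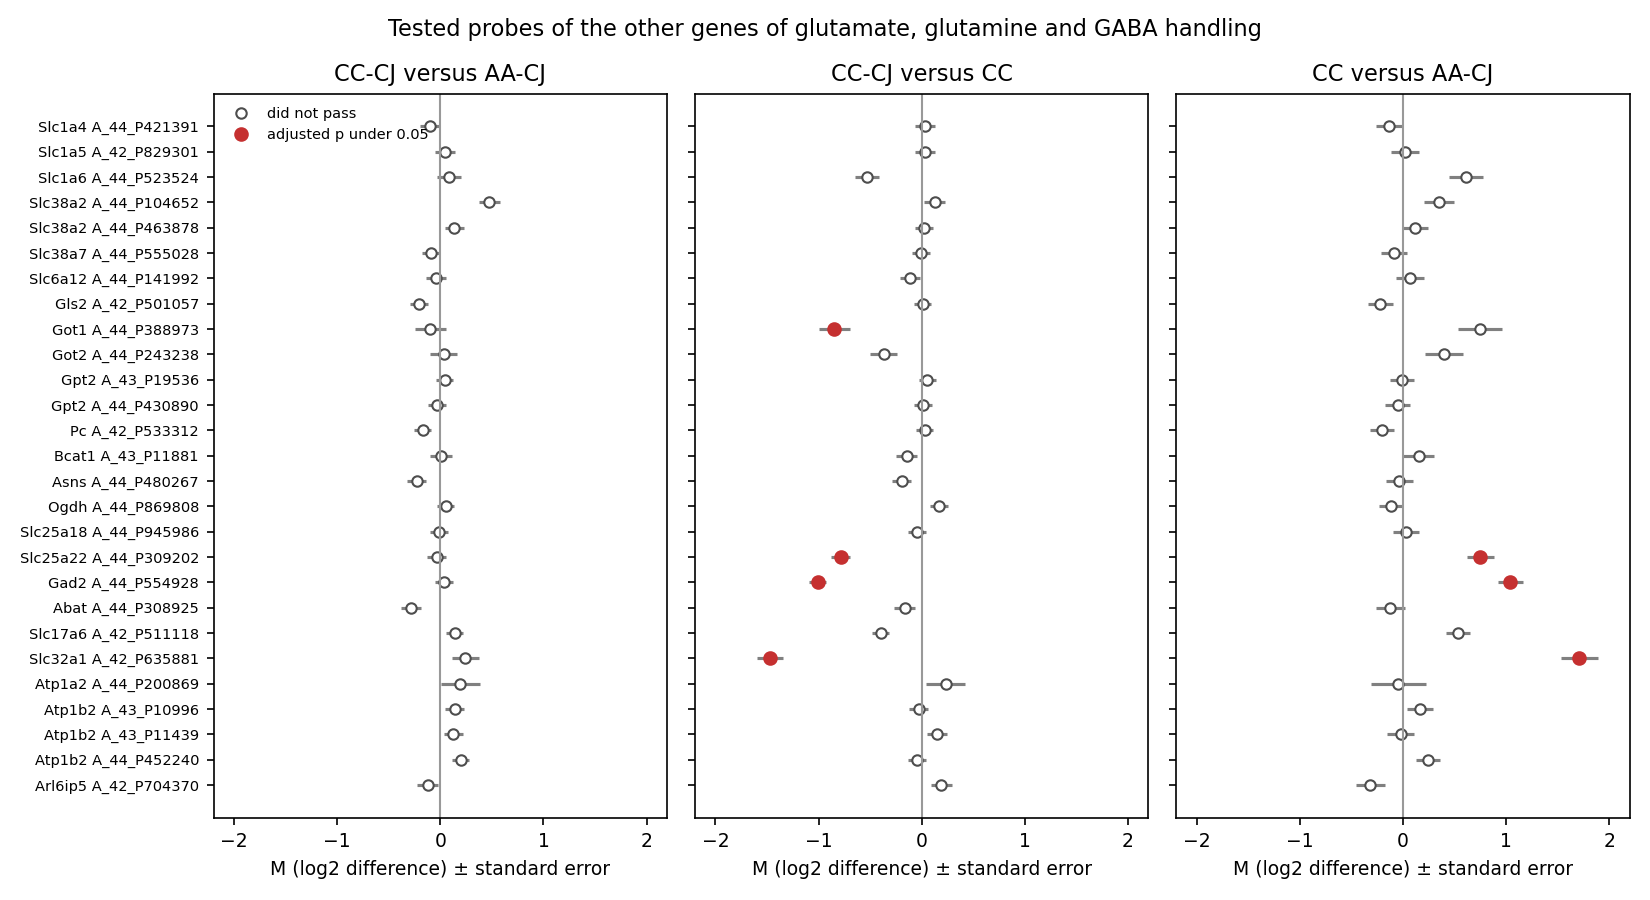
Log2 difference with its standard error (horizontal axis) for the 27 tested probes of other genes of glutamate, glutamine and GABA handling in the 3 comparisons. Filled red points passed a limma adjusted p of 0.05. No probe is filled in CC-CJ versus AA-CJ, while Slc32a1, Got1 and Slc25a22 lie between -1.47 and -0.78 in CC-CJ versus CC. Gad2 is also filled there, but it entered the test through CC alone and no fold is read for it, since its CC-CJ level is only a bound.

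The genes with ratios most like those of a member were found by Euclidean distance over M of the 4 arrays, at the brightest probe of each member that was tested. For Slc1a2 the nearest were Pls3, Casp8ap2 and Pcm1, at distances of 0.21, 0.22 and 0.23, and no probe with a gene symbol lay within 0.2. For Slc1a3 they were Atad1, Chd1 and Togaram1, at 0.14 each, with 6 probes within 0.2. For Glul they were Gdnf, Os9 and Slco1a4, at 0.26, 0.27 and 0.27, with none within 0.2. The probe of Glud1 used here and those of Slc38a3, Slc38a1 and Slc6a11 lay close to 0 on all arrays and had 881 to 1210 probes within 0.2, so that their nearest neighbours, led by Fam72a, Prelp, Atp6v0e1 and Rpl27, carry little information.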

How the data were processed

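RNA of AA-CJ, CC-CJ and CC was read on 4 Agilent whole rat genome arrays of 2 colours, all on 1 slide and in 1 scan. The authors deposited the spot intensities and local backgrounds that Feature Extraction 9.5.1.1 wrote (design 014879, probe positions rn4), with its log10 ratio of Cy5 over Cy3. A deposited table of processed values was found, against the scanner values, to be log2 of Cy5 over Cy3 (column medians 0.0085, 0.0043, -0.025 and -0.014, r with M turned to that direction 0.928 to 0.975 across probes). Its normalization by OLIN and OSLIN is named in the paper and it served as an alternative.

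Here mean signals were corrected by normexp (offset 50) and M by loess (span 0.3), in R 4.3.3 with limma 3.58.1. Spots of a probe were averaged, and 121 to 179 outlier spots per array were left out. Of 41012 probes, 24865 were kept, those marked well above background on all arrays of 1 or more RNA groups, and 24864 had values for each comparison. lmFit and eBayes used all 4 arrays, with 2 residual degrees of freedom and a prior of 5.02. Levels were scaled by Aquantile. With 2 arrays per comparison, their number limits the precision. Steps were tested on simulated data.

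Members, lists and tests were chosen with earlier results of these data known. All members and their probes are named; of other pathway genes, those past an adjusted p of 0.05, and Slc38a2, which did not pass and was singled out after its values were seen. Alternatives covered background, offset, normalization, source, filter, arrays, prior, gene means, replicate block and each array left out. Probe and protein sequences were not used here. Some genes of the pathway are not reported here.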

Additional observations from a re-analysis of the deposited data

How the results depend on the processing

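For the 33 differences of member probes, 508 values under the alternatives were computed. Of these, 432 kept direction and side of the threshold, 48 changed sign, of which 8 also passed the limma threshold, and 28 kept direction and passed it. Values of Slc38a1 rest on a CC-CJ channel that was not well above background on any array and are given for completeness, with no fold read from them. Where no other cause is named, the cause was not tested. Centring arrays on the median, which leaves the trend of M with intensity in place, called 9, 10 and 0 member probes and 17, 18 and 5 pathway probes in CC-CJ versus AA-CJ, CC-CJ versus CC and CC versus AA-CJ. Under it M against AA-CJ was -0.89 and -0.39 for Slc1a3 (A_42_P533183 and A_44_P167719, limma adjusted p = 0.00291 and 0.0351), -0.54 for Glul A_44_P381069 (limma adjusted p = 0.0259), -0.26 and -0.27 for Glud1 A_44_P259908 and A_44_P472500, and 0.56 for Slc38a1, while Glul A_44_P458704 was -1.44 and Glud1 A_43_P14157 -0.94. Against CC it was -0.79 and -0.50 for Slc1a3 (limma adjusted p = 0.00479 and 0.0122) and -0.52 for Glul A_44_P381069 (limma adjusted p = 0.0279), and CC minus AA-CJ was -0.17 for Glud1 A_43_P14157, -0.015 for Glul A_44_P381069 and -0.11 for Slc1a3 A_42_P533183.

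Without background subtraction, CC minus AA-CJ was 0.0089 for Slc38a3 and 0.020 for Slc6a11, CC-CJ minus AA-CJ was -0.036 for Slc6a11, and CC-CJ minus CC was -0.011, -0.0087 and -0.055 for Slc38a1, Slc38a3 and Slc6a11. With the signals processed by Feature Extraction these were 0.12, 0.065, -0.047, -0.011, -0.034 and -0.11, and 0 and 2 pathway probes were called against AA-CJ and CC. With the deposited processed values, M against AA-CJ was 0.0042 for Glud1 A_43_P14157 and -0.020 for Slc38a3, and M against CC was 0.069 for Glud1 A_44_P259908. Local regression gave 0.0087 for Slc38a3 in CC minus AA-CJ and 0.013 for Glud1 A_44_P259908 against CC, and called 1 member and 1 pathway probe against AA-CJ. Only the arrays of the comparison gave 3 member calls and 1 pathway call against AA-CJ, and could not give CC versus AA-CJ. Requiring signal in every channel dropped Slc38a3, Slc38a1 and Slc6a11, and called 2 pathway probes in CC-CJ versus CC and 2 in CC versus AA-CJ. The 2 SD criteria of the study, which also ask for comparable probes, called 0 member probes and 0 and 4 pathway probes. Glul A_44_P458704 lay beyond the 2 SD limits on both AA-CJ arrays, and the other Glul probe did not move with it.

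Leaving out single arrays gave 0 to 3, 0 to 1 and 0 to 1 member calls and 0 to 1, 2 to 5 and 2 to 4 pathway calls in the 3 comparisons. A lone array was then assumed to vary like the others. Against AA-CJ, values ran from -0.10 to 0.033 for Glud1 A_43_P14157, -0.14 to 0.65 for Slc1a3 A_42_P533183, -0.099 to 0.012 for Slc38a1 and -0.055 to 0.060 for Slc38a3. Against CC they ran from -0.25 to 0.078 and -0.33 to 0.058 for Glud1 A_44_P259908 and A_44_P472500, -0.22 to 0.44 and -1.74 to 0.19 for Glul A_44_P381069 and A_44_P458704, -0.36 to 0.055 for Slc1a2, -4.8e-05 to 0.021 for Slc1a3 A_42_P533183, -0.054 to 0.098 for Slc38a1 and -0.088 to 0.12 for Slc38a3. For CC minus AA-CJ they ran from -0.12 to 0.53 and -1.05 to 0.88 for the Glul probes, -0.15 to 0.64 for Slc1a3 A_42_P533183, -0.14 to 0.011 for Slc38a1 and -0.12 to 0.090 for Slc38a3.

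Same-numbered arrays did not deviate together (correlation -0.125 across probes). The replicate block called 0 member probes in each comparison and 0, 4 and 2 pathway probes. Crossed numbers, tried after seeing the data, called 0 member probes and 1, 5 and 3 pathway probes. Signal over background limits Slc1a1, the GLT1a probe, Slc38a3, Slc38a1 and Slc6a11.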
